A study of Saccharomyces cerevisiae with 7 samples.

Results

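The mRNAs bound by Puf1 (gene JSN1) and Puf2 of *Saccharomyces cerevisiae* were compared from 1 CLIP library of each protein. CLIP (crosslinking and immunoprecipitation) sequences the RNA fragments that ultraviolet light has joined to a protein. Called sites were kept where the authors classed them as coding sequence (CDS), 3' UTR or 5' UTR (untranslated region), predicted UTRs included. This kept 435 sites of Puf1 and 1028 of Puf2, together 1463 of the 10580 called sites of the 5 Puf proteins in the series. They named 870 genes, which fell into 144 with sites of both proteins, 190 with sites of Puf1 only and 536 with sites of Puf2 only.

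Both strains were of mating type a with the markers his3Δ1, leu2Δ0, met15Δ0 and ura3Δ0, and carried PUF1-TAP::HIS5 or PUF2-TAP::HIS5, the protein being fused to a TAP affinity tag. The cultures were kept at 30 °C in SD medium, and 4-thiouracil, a uracil analogue that crosslinks under 365 nm light, was supplied at 200 µM. They were irradiated 4 times at 150 mJ/cm2, and the lysates were cut with RNase T1, which cleaves after G. The strength of a site is its RPM, the reads of the site scaled by the authors to the depth of the library. With 1 library a protein no difference has a replicate check, no test was made, and a gene with sites of 1 protein only is one where the other library had no call, which does not show an absence of binding. mRNA levels are the authors' pooled RPKM of 2 samples of BY4742 puf3Δ::KAN, a strain of the other mating type.

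PUF proteins bind single-stranded RNA through a row of repeats that each contact a base, mostly in 3' UTRs, and commonly lower the stability or translation of the mRNA. Puf1 and Puf2 are relatives within this family, carry an RNA recognition motif besides the PUF repeats, and are known for binding mRNAs of membrane and cell surface proteins. Jsn1 is also known for a role in the movement of mitochondria.

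The strengths of the called sites were distributed differently in the libraries, and the cause was not tested. Puf1 sites had a median of 1228 RPM (lowest 1.67, highest 28212) and Puf2 sites a median of 203 RPM (lowest 1.64, highest 14973). Each distribution had an upper hump, which lay near 1573 RPM in Puf1 and 706 RPM in Puf2 by the median of the sites above the valley. The valley was placed by hand on an edge of the histogram, after the values were seen, at 724 RPM in Puf1 and 362 RPM in Puf2. Above it lay 266 of the 435 Puf1 sites and 430 of the 1028 Puf2 sites.

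The upper and lower ranges held different kinds of site in both libraries. Sites of the upper range were in 3' UTRs in 60.5% of cases in Puf1 and 57.4% in Puf2. Sites of the lower range were in coding sequence in 77.5% of cases in Puf1 and 81.3% in Puf2. They were also longer, with a median of 29 nt in each library against 22 nt and 23 nt in the upper range. Of upper Puf1 sites 28.9% overlapped a Puf2 site, and of lower ones 10.7%. In Puf2 these shares were 17.9% and 3.18%.

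**Figure D1:**
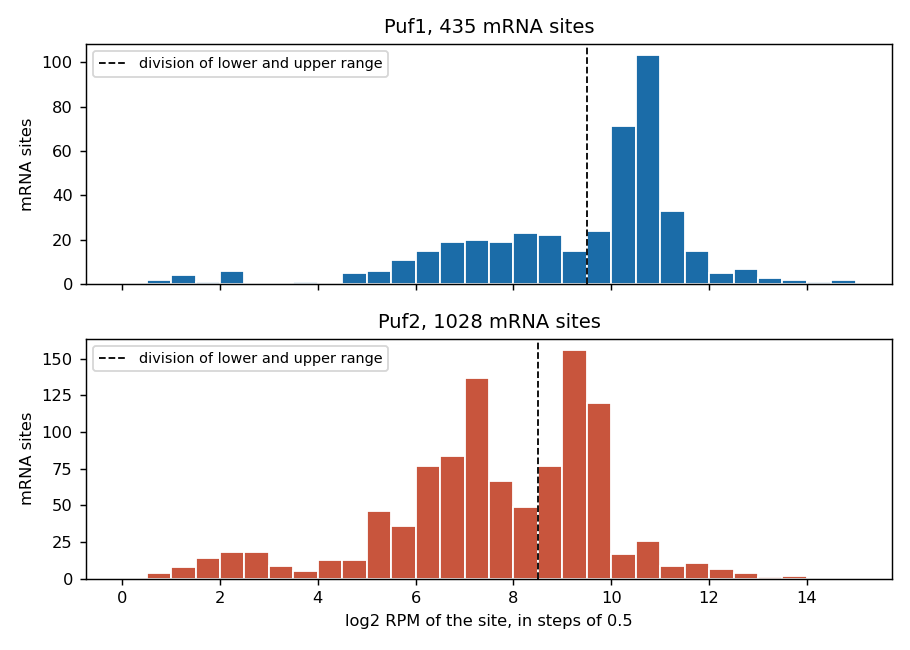
Number of mRNA sites (y axis) by log2 RPM of the site (x axis, steps of 0.5) in Puf1 (top, 435 sites) and Puf2 (bottom, 1028 sites), with dashed lines at 724 RPM and 362 RPM. Each library has an upper hump to the right of its line, holding 61.1% of Puf1 sites and 41.8% of Puf2 sites.

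The first comparison asked which genes the proteins shared. Protein-coding genes with a Puf1 site made up 5.46% of all, with a Puf2 site 10.9%, and with both 2.34%. The strongest site of both libraries was in the mRNA of PMA1, the proton pump of the plasma membrane. Of the 20 genes with the strongest sites, 10 were the same in both libraries, and of the 50 strongest, 19. All but 2 of the 20 strongest Puf1 genes had some Puf2 site (18 genes), and 17 of the 20 strongest Puf2 genes had some Puf1 site. The shared genes were 43.1% of the Puf1 genes and 21.2% of the Puf2 genes.

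Among Puf1 genes, sharing differed more by mRNA level than by the strength of the site. Among Puf2 genes it differed nearly alike by both. The genes of each library were divided into 4 bins of near-equal size. In the bin of Puf1 genes with the highest RPKM, 77.1% had a Puf2 site (66.6 to 85.6, exact 95% interval), and in the lowest bin 18.3% (10.6 to 28.4). Ordered by Puf1 RPM, the highest bin reached 57.1% and the others lay between 36.1% and 41.0%. In Puf2 the share with a Puf1 site was 46.7% (38.9 to 54.6) in the highest bin by RPKM and 10.4% (6.16 to 16.1) in the lowest. The median RPKM was 921 for shared genes, 109 for genes of Puf1 only and 157 for genes of Puf2 only, beside 56.0 for all protein-coding genes. The part of mRNA level in the sharing was not tested. Across the 139 shared genes with an RPKM the Spearman correlation of RPKM with the strongest RPM was -0.03 in Puf1 and -0.00 in Puf2. The points share a library and its calling, so these values are a description.

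Shared genes also had more sites each. More than 1 Puf2 site was called in 52.8% of shared genes and in 18.3% of genes of Puf2 only. For Puf1 these shares were 32.6% and 8.95%. PMA1 held the most sites in Puf2 (21), and PMA1 and NCE102, a membrane protein of eisosomes, had 8 each in Puf1.

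Of the 12 shared genes with the strongest sites, 10 were higher in Puf1. PMA1 had a strongest site of 28212 RPM in Puf1 and 14973 RPM in Puf2. TDH3, a glyceraldehyde-3-phosphate dehydrogenase, had 26925 RPM in Puf1 and 7626 RPM in Puf2. TPO2, a polyamine exporter, had 8413 RPM and 6837 RPM. These stood at ranks 1, 2 and 7 in Puf1 and ranks 1, 3 and 4 in Puf2. HSP150, a cell wall protein of the PIR family, had 12272 RPM in Puf1 and 4572 RPM in Puf2. SED1, a glycoprotein anchored in the wall, had 6518 RPM and 6118 RPM, the most equal of this group. MRH1, a membrane protein related to the heat shock protein Hsp30, had 7312 RPM and 4874 RPM. The chitinase CTS1, which parts mother and daughter cells, had 5781 RPM and 3437 RPM. CWP2, a mannoprotein of the wall, had 10679 RPM in the 3' UTR in Puf1 and 1618 RPM in the 5' UTR in Puf2. The uncharacterised gene YDR524C-B had 7377 RPM and 2613 RPM. ZEO1, a peripheral membrane protein of the cell wall integrity pathway, had 5386 RPM and 3085 RPM. All of these were higher in Puf1, as were 105 of the 144 shared genes.

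A smaller group of strong genes went the other way. LSP1, a core protein of eisosomes, had 8048 RPM in Puf2 and 3181 RPM in Puf1, at ranks 2 and 24. RPI1, a regulator of the Ras pathway and of cell wall genes, had 4031 RPM in Puf2 and 1912 RPM in Puf1. YRO2, the relative of MRH1, had 4218 RPM and 3234 RPM at 5' UTR sites with centres 59.5 nt apart. Its 2 overlapping pairs were stronger in Puf1. The proteolipid PMP2, which regulates the proton pump, had 3553 RPM and 2017 RPM at 3' UTR sites with centres 190 nt apart. YNL190W, a wall protein linked to desiccation tolerance, had 5470 RPM in the 3' UTR in Puf2 and 1213 RPM in the 5' UTR in Puf1. Its 1 overlapping pair, in the 5' UTR, had 1213 RPM in Puf1 and 1158 RPM in Puf2.

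The next comparison asked how far the strengths agreed over all shared genes. The median shared gene was 1.95-fold stronger in Puf1 (log2 0.97, quartiles -0.14 and 1.95), close to the spacing of the upper humps. Past 4-fold were 36 shared genes in favour of Puf1 (25%) and 17 in favour of Puf2 (11.8%). Relative to the median ratio these numbers were 22 (15.3%) and 23 (16%), near equal in the 2 directions. Between the libraries the strongest RPM of the shared genes had a Spearman correlation of 0.47 (n = 144 genes), as a description.

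**Figure D2:**
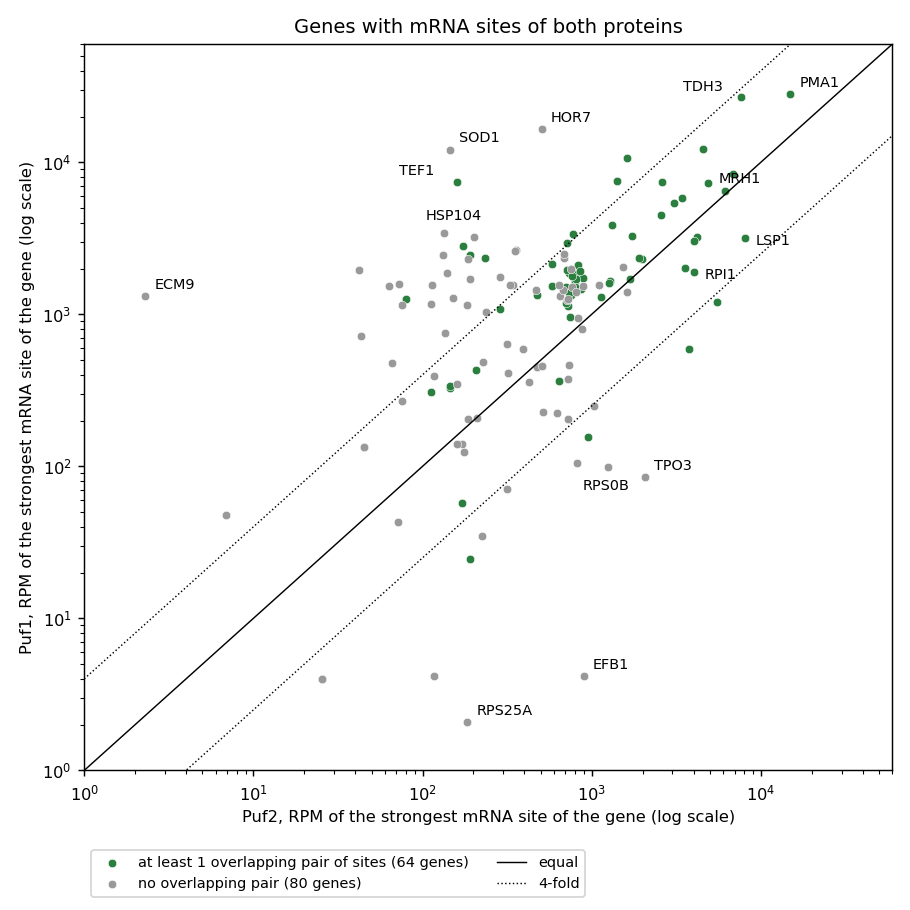
Strongest mRNA site of each of the 144 shared genes, in RPM, in Puf2 (x axis, log scale) and Puf1 (y axis, log scale). Green points are the 64 genes with at least 1 overlapping pair of sites, grey points the 80 without, and dotted lines mark 4-fold. PMA1 is highest on both axes, and most genes past 4-fold are grey.

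In the 6 shared genes with the largest ratio of strongest sites in each direction, these strongest sites did not overlap. Large ratios were also found within overlapping pairs, where the weaker site of each pair named here was near the lowest called. A TPO2 pair that shared 23 nt had 2.18 RPM in Puf1 and 6837 RPM in Puf2 (log2 -11.61), and a YDR524C-B pair that shared 20 nt had 1603 RPM and 4.27 RPM (log2 8.55). SOD1, the copper-zinc superoxide dismutase, had 1 site of 12119.5 RPM in Puf1, centred 9 nt before the start codon. In Puf2 it had 144 RPM in the 3' UTR and 134 RPM in the coding sequence. This is 83.9-fold, or 6.39 on the log2 scale. TEF1, translation elongation factor 1 alpha, had 3' UTR sites of 7407 RPM and 2915 RPM in Puf1 and none in Puf2, whose 7 sites lay in the coding sequence between 20.7 RPM and 160 RPM. Its near-identical copy TEF2 had 1 site of 3' UTR in each library, with 1349 RPM in Puf1 and 476 RPM in Puf2, and these overlapped by 31 nt. The 7 coding sites of TEF1 in Puf2 have the same RPM as 7 coding sites of TEF2, so their reads cannot be told apart between the copies, and neither can the weak coding site of 38.5 RPM that both have in Puf1. The disaggregase HSP104 had 1 site in Puf1, of 3451 RPM in the 3' UTR, and 2 coding sites in Puf2, of 134 RPM and 69.6 RPM. HOR7, a small membrane protein gene, had 16522 RPM in Puf1 and 506 RPM in Puf2, both in the 3' UTR with centres 30.5 nt apart. PBI2, an inhibitor of vacuolar proteases, had 1952 RPM in Puf1 and 42.1 RPM in Puf2. ECM9, of which the function is not well known, had 1318 RPM against 2.3 RPM, both in the coding sequence, and this Puf2 value is near the lowest called.

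On the side of Puf2, EFB1, the exchange factor of elongation factor 1, had 899 RPM in the coding sequence, against 4.18 RPM in the 3' UTR in Puf1. RPS25A, a ribosomal protein of the small subunit, had 184 RPM against 2.08 RPM, and the mitochondrial ADP/ATP carrier PET9 had 117 RPM against 4.18 RPM. The Puf1 values of these are near the lowest called, so the ratios rest on very weak sites. TPO3, a polyamine exporter similar to TPO2, had 2074 RPM in the 5' UTR in Puf2 and 85.03 RPM in the coding sequence in Puf1. That Puf1 site had the same RPM as a coding site of TPO2, so its reads cannot be told apart between the genes. RPS0B, a small subunit protein, had 1241 RPM in Puf2 and 99.4 RPM in Puf1, and RPS13 had 823 RPM and 105 RPM. EFT1, elongation factor 2, had 192 RPM and 24.6 RPM, and both values equal those of sites in its copy EFT2. The 4 identical ASP3 asparaginase genes were also in this group, with a log2 ratio of -2.67 each, and they count as 4 of the 144 shared genes.

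Of the 53 shared genes past 4-fold in either direction, 13 had an overlapping pair of sites and 40 had none. Of the 91 within 4-fold, 51 had one. Where Puf1 was past 4-fold, its strongest site was in the 3' UTR in 25 of 36 genes while that of Puf2 was in the coding sequence in 25 of 36.

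The feature holding the strongest site was then compared. It was the same in both libraries for 88 of the 144 shared genes, 61.1% (52.6 to 69.1, exact 95% interval). These were 51 genes with both in the 3' UTR, 28 with both in the coding sequence and 9 with both in the 5' UTR. In 28 genes Puf1 was strongest in the 3' UTR and Puf2 in the coding sequence, and in 24 of these Puf2 had no 3' UTR site at all. They include HSP104, TEF1, EFT2 (2456.5 RPM in Puf1, 192 RPM in Puf2), the zinc transporter ZRT1 (1704 RPM and 190.4 RPM), the ribosome-bound chaperone SSB2 (1550 RPM and 331 RPM), actin (ACT1) and phosphoglycerate kinase (PGK1). The 28 also count the 4 identical ASP3 copies, with a Puf1 site of 4.02 RPM each, and EFB1 and PET9, with 4.18 RPM in Puf1. These Puf1 sites are near the lowest called. The reverse, with Puf1 strongest in the coding sequence and Puf2 in the 3' UTR, was seen in 13 genes. In none of the 13 had Puf1 a 3' UTR site. Among these are the elongation factor YEF3 (795 RPM in the coding sequence in Puf1, 872 RPM in the 3' UTR in Puf2), enolase ENO1 (223 RPM and 626 RPM), the wall enzyme GAS1 (410.3 RPM and 319 RPM) and RPS13.

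Over all mRNA sites, 3' UTRs held 44.6% (39.9 to 49.4) of Puf1 sites and 32.4% (29.5 to 35.3) of Puf2 sites. Coding sequence held 45.1% (40.3 to 49.9) and 58.5% (55.4 to 61.5), and 5' UTRs 10.3% (7.65 to 13.6) and 9.14% (7.45 to 11.1). Weighted by RPM the libraries were closer, with 64.0% and 55.8% in 3' UTRs, 19.3% and 26.2% in coding sequence, and 16.7% and 18.0% in 5' UTRs. For the strongest site of a gene, the 3' UTR share was 56.9% in Puf1 and 49.3% in Puf2 among shared genes, against 36.3% in genes of Puf1 only and 31.5% in genes of Puf2 only. Genes called in 1 library were mostly called in the coding sequence, in 57.4% and 59.9% of cases. Within 3' UTRs of shared genes, 52.1% of Puf1 sites and 55.4% of Puf2 sites were within 100 nt of the stop codon. The lengths of the UTRs were not used, so these shares show no preference for a position. The median distance of the site centre was 95 nt in Puf1 and 87 nt in Puf2 for shared genes, and 69 nt and 81 nt for genes of 1 library.

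**Figure D3:**
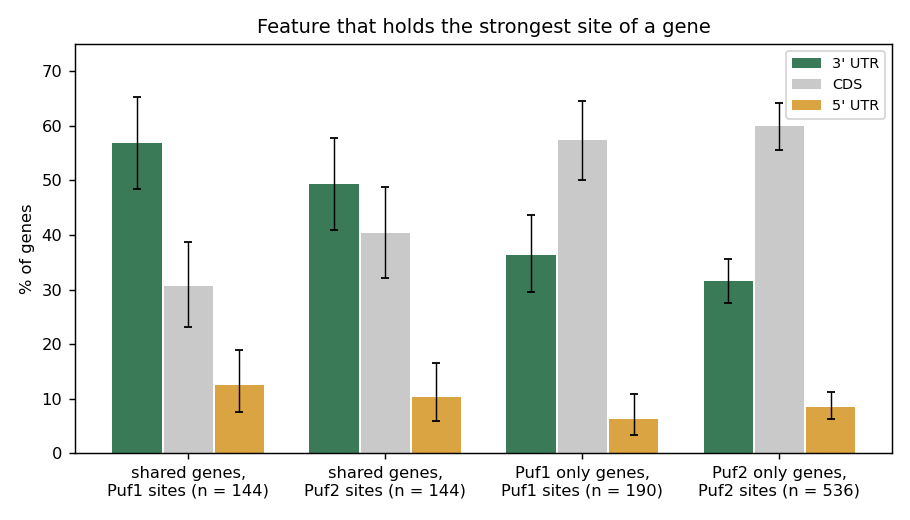
Share of genes (%, y axis) whose strongest site was in the 3' UTR, coding sequence (CDS) or 5' UTR, for the 144 shared genes in each library and for the 190 and 536 genes of 1 library, with exact 95% intervals as error bars. The 3' UTR bars are highest for shared genes (56.9% and 49.3%) and the coding bars for genes of 1 library (57.4% and 59.9%).

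The following comparison asked whether shared genes were bound at the same place. A Puf1 and a Puf2 site overlapped by at least 1 nt on the same strand in 64 of the 144 shared genes, 44.4% (36.2 to 52.9). The strongest sites themselves overlapped in 38 genes, 26.4% (19.4 to 34.4). The shares differed by feature, but no random placement was drawn, so the length of the features is not allowed for. Of 60 genes with a 3' UTR site in both libraries 43 had an overlapping pair there, 71.7% (58.6 to 82.5), and of 17 genes with a 5' UTR site in both 15 did, 88.2% (63.6 to 98.5). Of 45 genes with a coding site in both 15 did, 33.3% (20.0 to 49.0).

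There were 97 overlapping pairs, with 61 in 3' UTRs, 21 in 5' UTRs and 15 in coding sequence. They took in 95 Puf1 sites, 21.8% (18.0 to 26), and 96 Puf2 sites, 9.34% (7.63 to 11.3). By RPM they held 41.8% of the Puf1 mRNA total and 33.9% of the Puf2 mRNA total. The median overlap was 21 nt. In 20 pairs both ends were the same, in 40 the 3' end and in 38 the 5' end. Within pairs the median ratio was 0.95 on the log2 scale, and 68 of the 97 were stronger in Puf1. Past 4-fold were 15 pairs in favour of Puf1 and 8 in favour of Puf2.

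PMA1 had the most overlapping pairs of any gene. All 8 of its Puf1 sites overlapped a Puf2 site, 6 in the 3' UTR and 2 in the 5' UTR (sacCer3, chromosome VII, minus strand, positions as deposited). Puf1 was strongest at 479428 to 479455, with 28212 RPM, where Puf2 had a longer site at 479390 to 479460 with 14532 RPM. The strongest Puf2 site, at 479470 to 479495 with 14973 RPM, overlapped a Puf1 site of 10440 RPM. Near the stop codon, sites centred 25 nt past it had 5311 RPM in Puf1 and 5663 RPM in Puf2. The 5' UTR pairs had 2857 RPM in Puf1 and 9943 RPM in Puf2 at sites that shared 4 nt, and 1765 RPM and 636 RPM at the pair nearer the start codon. Of the 8 pairs 5 were stronger in Puf2, 4 of these in the 3' UTR. The 10 Puf2 sites in the coding sequence of PMA1 had 5.91 RPM to 173 RPM, and Puf1 had none there. The summed RPM of PMA1 was 56595 in Puf1 and 61037 in Puf2, more equal than the strongest sites were.

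MRH1 was bound at both ends. Its sites about 95 nt before the start codon (chromosome IV, 508041 to 508064 in Puf1 and 508041 to 508061 in Puf2) had 7312 RPM in Puf1 and 2993 RPM in Puf2. Those near 259 nt past the stop codon had 984 RPM in Puf1 and 4874 RPM in Puf2. The strongest site of MRH1 was thus at the 5' end for Puf1 and at the 3' end for Puf2, while both proteins had a site at each end. TPO2 had all its Puf2 sites in the 5' UTR. There, 3 neighbouring pairs had 8413 RPM in Puf1 and 612 RPM in Puf2, then 2791 RPM and 2921 RPM, then 2.18 RPM and 6837 RPM. The strongest of Puf1 and of Puf2 were 36 nt apart and did not overlap. Nearer the start codon Puf2 had a further site of 4942 RPM that no Puf1 site overlapped.

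**Figure D4:**
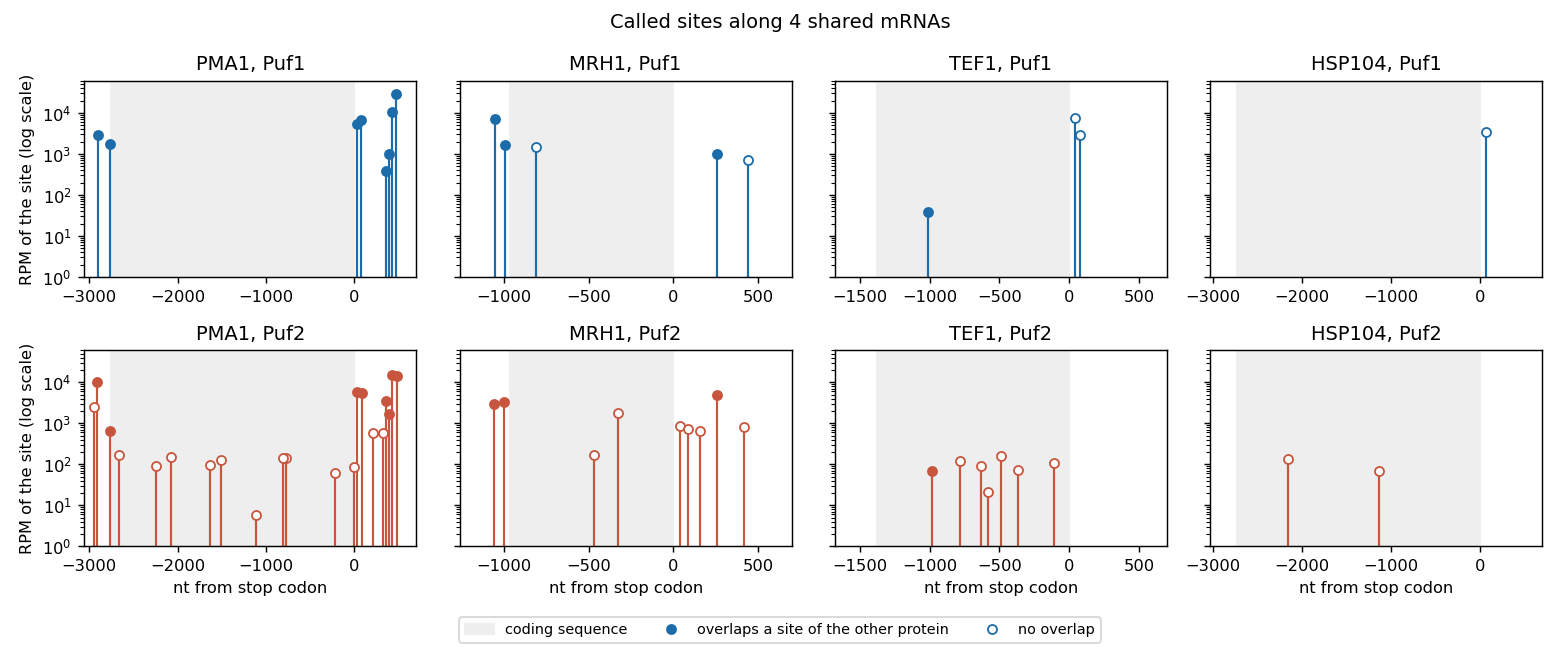
Called sites of Puf1 (top) and Puf2 (bottom) along PMA1, MRH1, TEF1 and HSP104, by distance of the site centre from the stop codon (x axis, nt) and RPM (y axis, log scale), with the coding sequence shaded. Filled points overlap a site of the other protein: all 8 Puf1 sites of PMA1 are filled, while the 3' UTR sites of TEF1 and HSP104 in Puf1 are open and face coding sites in Puf2. The filled TEF1 pair shares 1 nt.

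Other strong pairs had the same bounds or nearly so. At TDH3 (chromosome VII, minus strand) the sites had the same 5' end, at 882750, with 26925 RPM in Puf1 and 7626 RPM in Puf2. At LSP1 (chromosome XVI, minus strand) a pair centred 14 nt past the stop codon had 3181 RPM in Puf1 and 8048 RPM in Puf2. RPI1 (chromosome IX, minus strand) had its strongest pair with the same 3' end, at 136529, with 1912 RPM and 4031 RPM. CCW12, a major wall mannoprotein, had sites of the same bounds in the 5' UTR with 4512 RPM and 2577 RPM, and pyruvate decarboxylase PDC1 had them in the 3' UTR with 3272 RPM and 1733 RPM. ENO2, an enolase, had them in the 5' UTR with 7476 RPM in Puf1 and 1410 RPM in Puf2, a 5.30-fold difference at 1 position. On the log2 scale this is 2.41, and 1.44 relative to the median ratio of shared genes, which is under 4-fold.

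Sites of the other Puf proteins were set beside the pairs. Of the 95 Puf1 sites in a pair with Puf2, 51.6% (41.1 to 62.0) also overlapped a Puf5 site and 21.1% (13.4 to 30.6) a Puf4 site. Of the other 340 Puf1 sites these shares were 14.7% (11.1 to 18.9) and 9.71% (6.78 to 13.4). Over all Puf1 sites the share that overlapped a Puf5 site was 22.8% (18.9 to 27.0), beside 21.8% for Puf2, while Puf5 had 2255 mRNA sites and Puf2 1028. No library of an untagged strain was used here, so fragments common to all libraries cannot be told apart from shared binding. By gene, 79.9% of shared genes had a Puf5 site, 72.2% a Puf4 site and 35.4% a Puf6 site. For genes of Puf1 only the shares were 39.5%, 36.8% and 14.7%, for genes of Puf2 only 46.5%, 40.5% and 14.2%, and for all protein-coding genes 23.5%, 18.3% and 6.06%. Sites of neither Puf4, Puf5 nor Puf6 were called in 13 shared genes, 75 of Puf1 only and 199 of Puf2 only. SOD1 was 1 of the 13.

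Genes called in Puf1 only covered 3.12% of protein-coding genes. The strongest was FCY2, a purine and cytosine permease, with 5994 RPM in the 3' UTR. THI7, the thiamine transporter, had 3353 RPM, transaldolase TAL1 had 3157 RPM and asparagine synthetase ASN1 had 3102 RPM, all in 3' UTRs. The ribosomal protein genes RPL24B (2914 RPM) and RPS7B (2874 RPM) followed. VTC3, of the vacuolar polyphosphate polymerase, had 2581 RPM in the 3' UTR, and NTF2, a nuclear transport factor, 2733 RPM in the 5' UTR. MDM1 (2873 RPM), needed for the inheritance of organelles, and the glycyl-tRNA synthetase copy GRS2 (2667 RPM) were called in the coding sequence and had mRNA levels of 30.3 RPKM and 50.5 RPKM, beside the median of 56.0 over all protein-coding genes. All 10 lay above the valley of the Puf1 distribution, and 8 of them had 1 Puf1 site. NTF2 and ASN1 had 2.

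Genes called in Puf2 only covered 8.59% of protein-coding genes. TIF11, initiation factor eIF1A, was highest, with 3024 RPM in 1 coding site. PMP1 and PMP3, small proteolipids of the plasma membrane, had 2862 RPM and 1480.5 RPM in 3' UTRs. The ribosomal protein genes RPL23B (1960.1 RPM), RPL40A (1913 RPM), RPS29B (1594 RPM) and RPS28B (1543.5 RPM) were all called in the 3' UTR. The autophagy gene ATG41 (1556 RPM) and the uncharacterised YLR297W (2345 RPM) and YER053C-A (1398 RPM) completed the 10 highest. The call of PMP1 as Puf2 only depends on a name. Its start codon, at position 163067 of chromosome III on the minus strand, lies in a site at 163065 to 163085 that the authors named for the neighbour YCR024C-B. That site had the same bounds in both libraries, with 3021 RPM in Puf1 and 4028 RPM in Puf2. No other gene of 1 library had a site of the other library within 200 nt of its own sites, except RPL21A, 53 nt from a Puf2 site named YBR191W-A.

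The functional groups were described with 21 gene lists, set beside the shares of all protein-coding genes with a site (5.46% in Puf1 and 10.9% in Puf2). The lists differ in mRNA level. Their median RPKM ran from 5.22 (hexose transporters and sensors) to 1356 (glycolysis and fermentation), with 1065 for ribosomal proteins and 63.2 for transcriptional regulators. All protein-coding genes had 56.0. The part of mRNA level in the shares of the lists was not tested. Among proteins of the plasma membrane domains called eisosomes and of the MRH1 family, Puf1 sites were called in 5 of 17 genes (29.4%) and Puf2 sites in 6 of 17 (35.3%), and the 5 were shared and each had an overlapping pair. They were LSP1, MRH1, YRO2, NCE102 (3881 RPM in Puf1 and 1315 RPM in Puf2) and PIL1 (1127 RPM and 724 RPM), a core eisosome protein. Over all shared genes 44.4% had an overlapping pair. SUR7 had a Puf2 site alone (340 RPM). Of the proton pump group Puf2 had 5 of 7 genes and Puf1 2, PMA1 and PMP2.

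Transporters were divided by substrate. The polyamine exporters TPO1 (1244 RPM in Puf1 and 714 RPM in Puf2), TPO2 and TPO3 were called in both libraries and TPO4 in Puf2 (387 RPM), while TPO5 had no site. Hexose transporters and sensors were called in 3 of 19 genes in Puf1 (15.8%) and 1 in Puf2 (5.26%). HXT7 had 3' UTR sites in both, with 1870.5 RPM and 737 RPM, and HXT5 (952 RPM) and HXT6 (664 RPM) were called in Puf1 only. The HXT6 site has the RPM of a site in its copy HXT7. Amino acid permeases were called in 0 of 22 genes in Puf1, which in a list this short is near the 5.46% of all genes. In Puf2 they were called in 4 (18.2%). These were the methionine permease MUP1 (861 RPM), the glutamate and aspartate permease DIP5 (746 RPM), BAP2 (152 RPM) and TAT2 (81.4 RPM). In a mixed list of nucleobase, ammonium, phosphate, sulfate, metal, inositol, choline and glycerol transporters the numbers were 4 of 26 in Puf1 (15.4%) and 9 in Puf2 (34.6%), 3 of them shared and none with an overlapping pair. These 3 are too few to set against the 44.4% of all shared genes that had one. FET4, a low-affinity iron transporter, had 1168 RPM in the 5' UTR in Puf1 and 113 RPM in the coding sequence in Puf2.

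Cell wall genes differed by family. Among 27 mannoproteins with a GPI anchor, 7 were called in Puf1 (25.9%), 6 in Puf2 (22.2%) and 5 in both, including CWP2, SED1, CCW12 and CCW14 (1929.5 RPM and 851 RPM). Among 26 enzymes of wall glucan and chitin, Puf1 was called in 4 (15.4%) and Puf2 in 13 (50%). The 4 were shared, namely CTS1, the glucan synthase GSC2 (1836 RPM and 809 RPM), the daughter cell enzyme DSE2 (1609 RPM and 1272.5 RPM) and GAS1. Glucan synthase FKS1 (855 RPM), SUN4 (725 RPM), UTH1 (739 RPM) and TOS1 (718 RPM) were among the 9 of Puf2 only. Of 17 sensors and signalling proteins of wall integrity and osmosensing, ZEO1 was shared and 6 others were called in Puf2 only, with the MAP kinase SLT2 (831 RPM), the sensor MTL1 (537 RPM) and the GTPase RHO1 (428 RPM) highest.

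**Figure D5:**
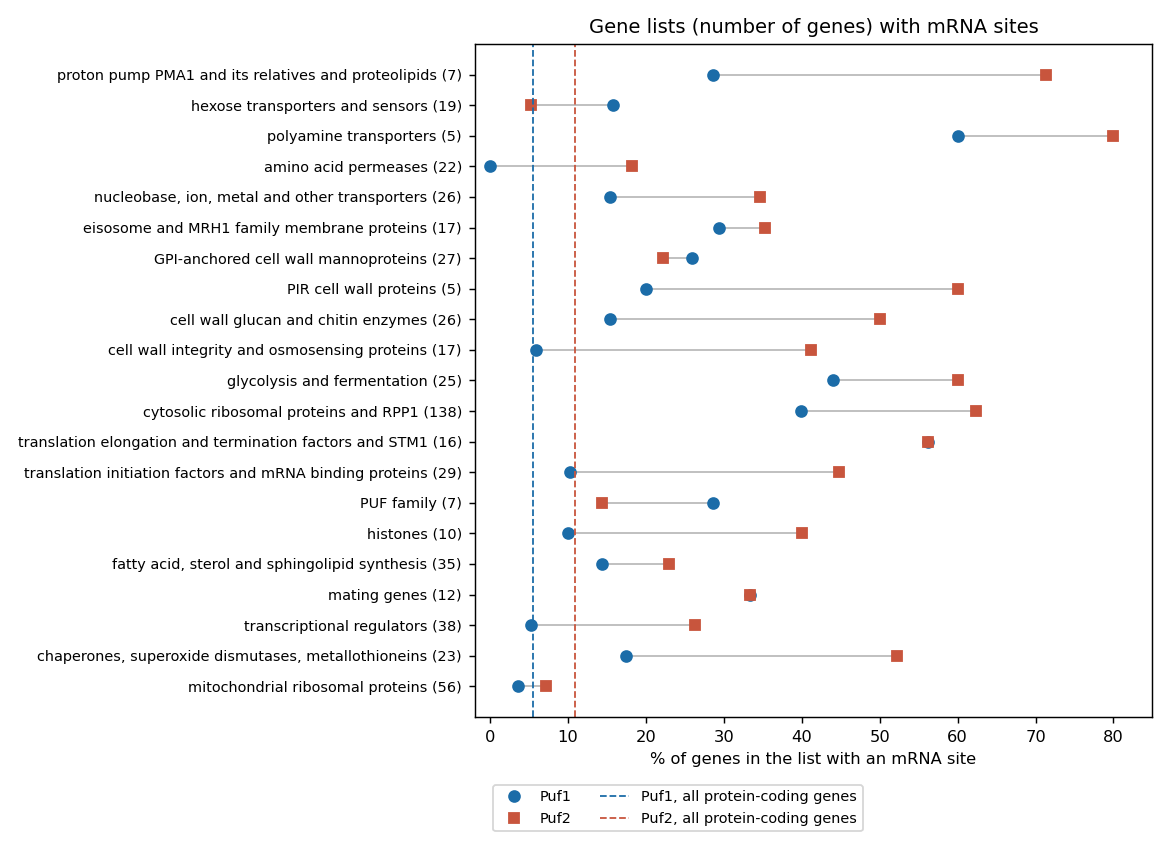
Share of each gene list with an mRNA site (%, x axis) in Puf1 (circles) and Puf2 (squares), with list sizes in brackets and dashed lines at the shares of all protein-coding genes, 5.46% and 10.9%. Elongation factors coincide at 56.2%, while wall glucan and chitin enzymes are at 15.4% in Puf1 and 50% in Puf2.

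The list of cytosolic ribosomal protein genes was matched by name, which also took in RPP1, an RNase P subunit called in Puf2 only. Of its 138 genes 55 had a Puf1 site (39.9%), 86 a Puf2 site (62.3%) and 37 both, and in 11 of the 37 the sites overlapped. Over all shared genes they did in 64 of 144. RPL30, which autoregulates its own mRNA, had 5' UTR sites in both, with 2802 RPM in Puf1 and 174 RPM in Puf2, and RPL8B had 2639 RPM and 357 RPM in the 3' UTR. Elongation and termination factors, with the ribosome-bound STM1 counted among them, were called in 9 of 16 genes (56.2%) in each library, and these were the same 9 genes. The 1 Puf1 site and the 4 Puf2 sites of EFT1 have the RPM of sites in its copy EFT2. The calls of EFT1 thus cannot be told apart from those of EFT2. EFB1 had only 4.18 RPM in Puf1, near the lowest called. Initiation factors and mRNA-binding proteins shared no gene. In a list of this size that is near the background, as 2.34% of all protein-coding genes were shared. Puf1 was called in 3 of 29 (10.3%), with GCD11, the gamma subunit of eIF2 (1662 RPM), and SRO9 (1385 RPM), and Puf2 in 13 (44.8%), with TIF11, the eIF4G gene TIF4631 (759 RPM) and poly(A)-binding protein PAB1 (698 RPM). Of 10 histone genes Puf1 was called in 1 (10%) and Puf2 in 4 (40%), with HHF1 in Puf1 (1631 RPM) and HTA1 (742 RPM), HHF2 (720.1 RPM), HTB1 (662 RPM) and HTZ1 (633 RPM) in Puf2. None of the 10 was shared, where 2.34% of all protein-coding genes were, so in a list this short a count of 0 is near the background.

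Glycolysis and fermentation genes were called in 11 of 25 in Puf1 (44%) and 15 in Puf2 (60%), with 9 shared. PFK2, a phosphofructokinase subunit, had 3' UTR sites of 2619 RPM in Puf1 and 353 RPM in Puf2 without overlap, and TPI1, triose phosphate isomerase, an overlapping pair of 1653 RPM and 1281 RPM. Fatty acid, sterol and sphingolipid genes were called in 5 of 35 (14.3%) and 8 (22.9%). FAS1, a fatty acid synthase subunit, was shared (1475 RPM and 815 RPM), while FAS2, the other subunit, was called in Puf1 only (1917 RPM). ERG11, a demethylase of sterol synthesis, had 3232 RPM in the 5' UTR in Puf1 and 201 RPM in the coding sequence in Puf2. Chaperones and stress proteins, a list that also holds the superoxide dismutases and metallothioneins, were called in 4 of 23 (17.4%) and 12 (52.2%), and none of their 3 shared genes had an overlapping pair. Over all shared genes 44.4% had one, and 3 genes are too few to set against this share. Transcriptional regulators were called in 2 of 38 in Puf1 (5.26%), RPI1 and MIG1, near the share of all genes, and in 10 in Puf2 (26.3%), with the stress regulator MSN4 (1031 RPM) highest after RPI1. Of 5 PIR genes HSP150 was shared, and PIR1 (1164.5 RPM) and PIR3 (185 RPM) were called in Puf2 only. The PIR3 site has the same RPM as a coding site of PIR1, so its reads cannot be told apart between the genes. Mitochondrial ribosomal protein genes were near the shares of all genes or below, with 2 of 56 (3.57%) in Puf1 and 4 (7.14%) in Puf2. None was shared, beside 2.34% of all protein-coding genes.

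Of 12 mating genes 4 had a site in each library (33.3%), and the a-factor pheromone genes MFA1 and MFA2 were shared. MFA2 had sites of 2321.5 RPM in Puf1 and 1987 RPM in Puf2, and MFA1 of 2147 RPM and 579 RPM. Their RPKM was 1.35 and 1.11, as the mRNA-seq strain is of the other mating type, and shows that this table does not stand for such genes. STE6, the a-factor exporter, was called in Puf1 (1492 RPM) and the alpha-factor receptor STE2 in Puf2 (778 RPM). Of 7 PUF family genes Puf1 was called in 2 and Puf2 in 1. PUF2 mRNA had coding sites in both libraries. Puf1 had 366 RPM there at chromosome XVI, 650501 to 650534, overlapped by a Puf2 site of 129 RPM, and Puf2 had a further 641 RPM at 650656 to 650683. PUF4 had a Puf1 site of 167 RPM, and JSN1 had no mRNA site in either library.

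Puf2 had more called sites than Puf1, which bears on every list. With the 435 strongest Puf2 sites alone, 5.28% of protein-coding genes had a Puf2 site, close to the 5.46% of Puf1. Wall glucan and chitin enzymes then stood at 11 of 26 in Puf2 against 4 in Puf1, initiation factors and mRNA-binding proteins at 9 against 3 of 29, and wall integrity and osmosensing proteins at 5 against 1 of 17. The ribosomal protein list turned to 44 in Puf2 against 55 in Puf1, and elongation factors to 5 against 9. The mixed transporter list came to 4 in each library, with none shared.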

How the data were processed

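The authors deposited 1 list of called sites per CLIP library, with RPM values (read numbers per site after scaling for sequencing depth), and 1 RPKM column for both mRNA-seq samples. CASAVA 1.8.2, Bowtie 0.12.7 and sacCer3 are named, per the submitters' processing notes. The site caller, its threshold, the UTR annotation, the RPM divisor and the treatment of reads with several matches are not given in the sources used here, nor are read totals, so intervals of RPM could not be made. All called sites summed to 889089 RPM in Puf1 and 838474 RPM in Puf2, of which mRNA sites held 73.1% and 63.2%.

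Sites of the 5 mRNA types were kept and predicted UTRs merged with UTRs. Classes were set by the deposited gene name. A gene's value is the RPM of its strongest site, and 4-fold was the limit of size. Of 870 genes 846 matched a RefSeq table (assembly R64) of 6021 protein-coding genes, and of coding sites with bounds 97.4% in Puf1 and 97.3% in Puf2 lay inside their gene. Whether positions count from 0 or 1 was not given, so distances are good to 1 nt. Shares have exact Clopper-Pearson 95% intervals, which cover counting error only, and no test was made. Named genes were the 12 strongest shared by the geometric mean of both libraries, the 10 strongest of each single class, the 6 of largest ratio in each direction, the 4 strongest of each list and the genes of both proteins. EFT1, PGK1, ACT1, YEF3, ENO1, GAS1, TPI1, PAB1, PIL1, SUR7, SUN4, UTH1, TOS1, HTZ1, MIG1, STE2, YNL190W, RPL21A, YBR191W-A, YCR024C-B, RPP1 and the ASP3 copies were named outside this rule, after their values were seen. The members and lists were chosen with earlier results of these data known. Counting was tested on simulated site lists. Python 3.11.15, pandas 2.3.3 and scipy 1.17.1 were used. The planned count of sequence motifs in the sites was not made because no genome sequence was used here.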

Additional observations from a re-analysis of the deposited data

How the results depend on the processing

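With 1 library a protein there were no replicates to leave out. No paired analysis was possible because no group has more than 1 CLIP library. In all, 15 alternatives were run; of the values they gave for the main results 81 stayed within 1.5 times (or within the interval of a share) and the others are given here. With the stronger 50% of sites in each library, shared genes numbered 67, Puf1 only 112 and Puf2 only 309, the share of shared genes with overlap was 65.7% and with the strongest sites in the same feature 80.6%, and 11 and 0 genes passed 4-fold in favour of Puf1 and Puf2. With as many Puf2 sites as Puf1 sites, shared genes were 86 and Puf2 only 235, overlap was 59.3%, the same feature 75.6%, and 7 and 8 genes passed 4-fold. With 3' UTR sites alone these numbers were 60 shared, 97 and 202 of 1 library, 71.7% with overlap, 9 and 3 genes past 4-fold, and by construction 100% in the same feature. Without sites that have the RPM of a site in another gene, 7 genes passed 4-fold in favour of Puf2. For genes whose strongest sites overlap, 3 and 1 passed it, and counting only overlap of the strongest sites gave 26.4%. By RPM 105 of the 144 shared genes were higher in Puf1. By rank in their own library 95 stood higher in Puf1, with 3 ties, and 46 did when ranks were divided by the number of genes of the library, 334 in Puf1 and 680 in Puf2, an alternative chosen after seeing the data. These counts move with the unequal list lengths and show no order of the proteins. Fewer sites or genes entered most of these by construction, and for the others the cause was not tested. For 49 named shared genes, 520 ratios under these settings stayed within 1.5 times, 25 moved further and none that passed 4-fold changed sign. Most settings leave the strongest site of a gene as it was, so they could not move its ratio, and the 520 is no measure of stability. Of the 25, 22 moved when RPM was summed per gene, where 27 of the 49 genes stayed. The other 3 moved with 3' UTR sites alone. Weak sites, near the lowest called RPM, limit the largest ratios.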
